A study of Homo sapiens with 4 samples.

Results

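The proteasome subunit genes were followed through 4 RNA-seq libraries of RPE1, a telomerase-immortalised line from human retinal pigment epithelium, in which SAF-A had been depleted by siRNA. The members were the protein-coding genes whose RefSeq symbols begin with PSMA, PSMB, PSMC or PSMD and a digit, with 1 immunoproteasome gene of the PSMB series not analysed here. They numbered 39 of 25027 gene symbols or identifiers in the files. By role they were 8 core alpha, 10 core beta, 9 base and 8 lid subunits, the 3 assembly chaperones PSMD5, PSMD9 and PSMD10, and PSMC3IP, a protein of meiotic recombination that bears the prefix and is not a subunit. The rule used names alone and no measured value, but it was set with earlier results of these data known.

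Cells were transfected with 10 nM of an RNA duplex, either against SAF-A or a commercial negative control, and total RNA was taken at 24 h and 48 h and depleted of ribosomal RNA. Each of the 4 combinations of siRNA and time was done once, in the same line and medium. No difference below therefore has a replicate check, and no p-value is given. Only 1 duplex against SAF-A was used, so an effect of that sequence apart from SAF-A loss was not tested. SAF-A, the product of HNRNPU, is a nuclear scaffold protein with RNA- and DNA-binding domains. Its duplex is shown because every SAF-A comparison rests on it; the letters are given as deposited, with both u and t.
SAF-A siRNA: ccugggaaucgtggcggatataata
The sequence matched GRCh37 (hg19), the build of the files, on the minus strand at chr1:245018884-245018908, within the HNRNPU coding sequence, in exon 12 (of 14 exons).

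The proteasome degrades proteins marked with ubiquitin. Its core particle is a barrel of stacked rings, with outer alpha rings that gate the entrance and inner beta rings that hold the protease sites. A regulatory particle caps the barrel: the ring of PSMC ATPases in its base unfolds substrates, and its lid holds the enzyme that removes ubiquitin. The subunits are made in matched amounts, and cells raise their genes together when proteasome activity falls, through the transcription factor NFE2L1.

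Values are FPKM, fragments counted per kilobase of transcript and scaled to sequencing depth. They are summed here over the RefSeq rows of a symbol. A difference is in log2(FPKM + 1), and a gene is called higher or lower when it differs by at least 2-fold on that scale. Calls were made among the 11631 genes that averaged 1 FPKM or more across libraries. That held for 37 of the 39 members and for 33 of the 35 subunits of core, base and lid. PSMA8, the alpha subunit of the testis, and PSMB11, the beta subunit of the thymus cortex, were at or below 0.0421 FPKM in every library.

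The values imply 28083822 mapped reads in the 24 h control, 30701282 after 24 h of SAF-A depletion, 28586051 in the 48 h control and 1216740 after 48 h of depletion. The last library stands apart, and both comparisons at 48 h that follow SAF-A siRNA share it. The tested members had a median of 3399 to 3698 estimated reads in the first 3 libraries and of 321 in the last. HNRNPU was at 91.2, 10.4, 84.6 and 9.24 FPKM in the same order, which is 11.4% of control at 24 h and 10.9% at 48 h. Of 7 genes typical of retinal pigment epithelium, MITF and OTX2 reached 1 FPKM in any library and RPE65 was listed at 0 in all 4. Of 6 blood cell genes, CD68 alone did, and CD3E and SPI1 were listed at 0.

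Under control siRNA the core subunits stood above the base and lid. At 24 h the median was 129 FPKM for the 7 tested alpha subunits, 152 FPKM for the 9 beta, 67.1 FPKM for the 9 base and 81.8 FPKM for the 8 lid subunits. At 48 h the control medians were 141, 170, 75.8 and 84.7 FPKM. The ranges within the groups overlapped widely: alpha subunits ran from 41.0 to 205 FPKM at 24 h, and base subunits from 35.9 to 201 FPKM. The highest member was PSMB4, a structural beta subunit, at 225 FPKM, and the highest base subunit was PSMD2, the large scaffold that binds ubiquitin-like domains, at 201 FPKM. PSMB9, of the immunoproteasome, was the lowest tested subunit at 1.98 FPKM.

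**Figure D1:**
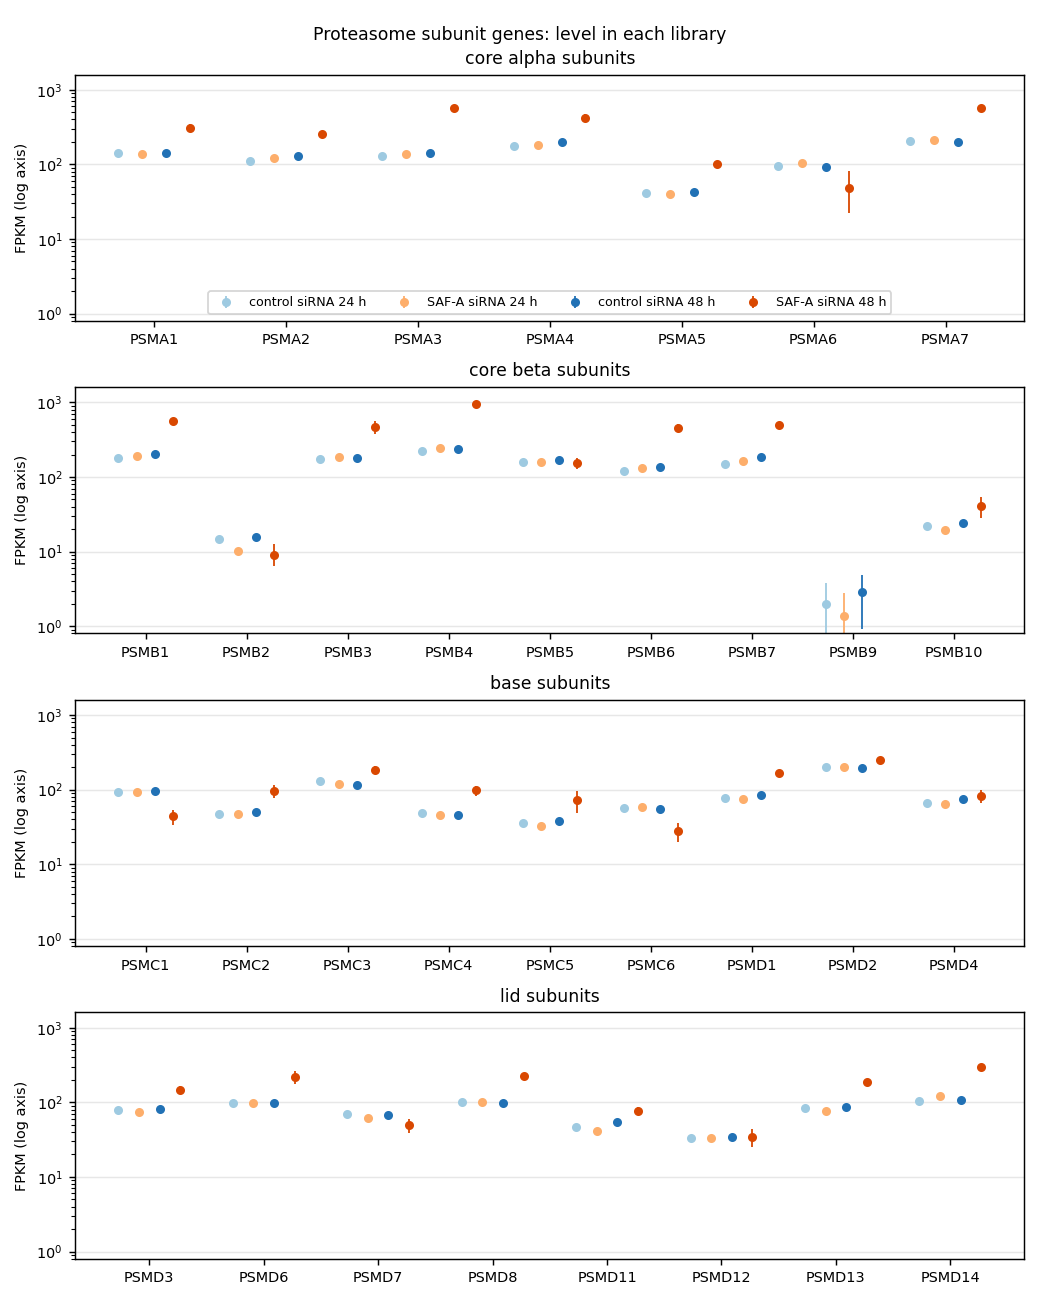
Level of each tested core, base and lid subunit in FPKM on a log axis, 1 point per library with its deposited 95% interval (lower ends of the PSMB9 intervals fall below the axis, and PSMB9 has no point at 48 h with SAF-A siRNA, where it was listed at 0). In most subunits 3 libraries lie together and the library with SAF-A siRNA at 48 h lies above them; it is the lowest of the 4 for PSMA6, PSMB2, PSMB5, PSMB9, PSMC1, PSMC6 and PSMD7.

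At 24 h the proteasome genes were nearly level between SAF-A and control siRNA. None of the 37 tested members was called in either direction. Of all tested genes 1.83% were called higher and 1.25% lower. Among the 2335 abundant ones, averaging 30 FPKM or more with spliced lengths from 300 nt up, the shares were 0.171% and 0.0857%. The absence of calls thus does not set the members apart. The members' differences ran from -0.49 to 0.19, with a median of -0.01 beside -0.06 for all tested genes. By group the median was 0.06 for alpha, 0.09 for beta, -0.04 for base and -0.05 for lid subunits. Rescaling each library to TPM, so that all rows sum to the same total, shifted the median of all tested genes by -0.16. Under it all 4 group medians were below 0, and over the scalings tried the sign varied for 25 of the 37 members. No direction is therefore given for the groups at this time.

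The deposited 95% intervals of the 2 libraries at 24 h did not overlap for 8 members, 4 higher and 4 lower with SAF-A siRNA. Among all tested genes the intervals were apart for 8.98% that were higher and 17.5% that were lower, so these counts do not set the members apart. These intervals express how precisely 1 library was estimated, and say nothing of how cultures vary. Summed over rows, they are also wider than an interval of the sum. PSMB2, a structural beta subunit (hg19 chr1:36065143-36107445, minus strand), showed the largest difference, from 14.7 FPKM in the control to 10.2 FPKM in depleted cells (-0.49). At 48 h it stood at 15.7 and 9.05 FPKM (-0.73). It was thus lower in both SAF-A libraries than in either control library.

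PSMD7, a lid subunit that pairs with the deubiquitinase, was likewise lower in both, going from 69.1 to 61.1 FPKM at the earlier time and from 67.3 to 49.3 FPKM at the later one. Its differences were -0.18 and -0.44, and the intervals did not overlap at either time. PSMD14, that deubiquitinase (hg19 chr2:162164786-162268228, plus strand), went the other way at both times. Its level was 105 FPKM in the 24 h control and 120 FPKM in the depleted cells (0.19), then 106 against 294 FPKM at 48 h (1.46). The signs of PSMB2 and PSMD7 held at both times under every scaling tried, while the 24 h difference of PSMD14 was 0.01 after rescaling to TPM over all rows. PSMA2, PSMB1 and PSMB4 were also higher at both times with intervals apart, but their 24 h differences of 0.14, 0.10 and 0.11 changed sign after rescaling to TPM over all rows. The share of all tested genes with intervals apart in the same direction at both times is not given here. Such agreement therefore does not set these members apart, PSMB2, PSMD7 and PSMD14 included.

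Time alone moved the members little under control siRNA. None of the 37 was called between 48 h and 24 h, where 1.79% of all tested genes were called higher and 1.36% lower. For the 2335 abundant genes the shares were 0.257% and 0.557%. The intervals were apart for 8 members that were higher and 2 that were lower, beside 18.3% and 12.7% of all tested genes. The median difference was 0.06 for the members and 0.03 for all tested genes. All 9 tested beta subunits were slightly higher at 48 h, by 0.05 to 0.37, with intervals apart for 3 of them. PSMB7 was the largest of these 3, at 152 and 185 FPKM.

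At 48 h most proteasome genes were higher with SAF-A siRNA. Of the 37 tested members 16 were called higher and 3 lower. Among all tested genes 14.2% were called higher and 20.1% lower. The 16 members called higher all had intervals apart. Of the 3 called lower PSMC1 alone did. PSMB9 and PSMC3IP were listed at 0 in the shallow library, and their intervals, each summed over 8 rows, overlapped those of the control. For PSMC3IP the overlap rests on that sum, as a bound set by 3 reads lay below its control interval. The subunits are abundant. Among the 2335 tested genes averaging 30 FPKM or more, with spliced lengths from 300 nt up, the shares were 26.4% and 14.3%. That average includes the SAF-A library at 48 h, so genes high there enter the set more readily and genes low there less. This bears on every share and median of the abundant genes that involves that library. Counted by intervals instead of by fold, 25 members were higher and 5 lower, beside 21.9% and 25.5% of all tested genes and 47.0% and 27.4% of the abundant ones. The members' median difference was 0.94, beside -0.12 for all tested genes and 0.34 for those abundant ones. Rescaling over rows of at least 300 nt shifted the median of all tested genes by -0.23 and left 9 members called higher and 5 lower. The shares of all tested genes called after rescaling are not given here, so these rescaled counts have no background beside them. In bulk RNA, fewer cells with a transcript and less of it per cell cannot be told apart.

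Beside these counts stands the depth of the library with SAF-A siRNA at 48 h, described above, whose part in the differences was not tested. That library was the highest of the 4 for 28 of the 37 tested members and the lowest for 9. It was the highest for 39.9% of all tested genes and 57.6% of the abundant ones, and the lowest for 45.8% and 34.3%. For 25 members its interval lay above those of both control siRNA at 48 h and SAF-A siRNA at 24 h, as it did for 19.5% of all tested genes and 44.4% of the abundant ones.

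**Figure D2:**
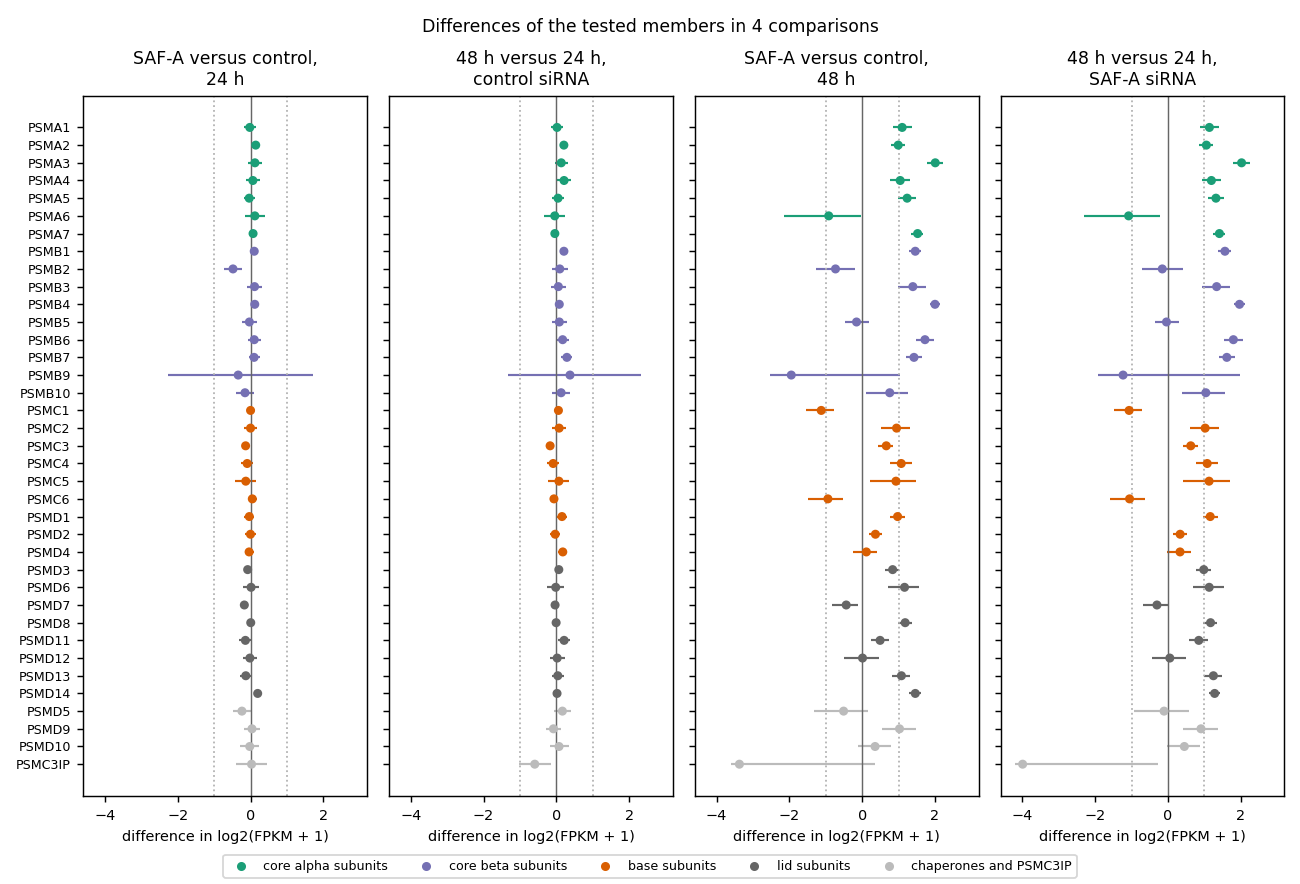
Difference in log2(FPKM + 1) of the 37 tested members in the 4 comparisons, with bars from the most extreme combinations of the deposited bounds and dotted lines at 2-fold; bars for PSMB9 and PSMC3IP at 48 h with SAF-A siRNA start from an upper bound set by 3 reads or the deposited bound. Points cluster at 0 in both comparisons without the SAF-A 48 h library and spread from below -1 to about 2 in both comparisons that use it.

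The core alpha ring had a median difference of 1.10 at 48 h, with 5 of 7 subunits called higher and none lower. PSMA3 (hg19 chr14:58711523-58738727, plus strand) led, at 129, 140, 141 and 571 FPKM. The order, kept below, is the 24 h control, 24 h of depletion, the 48 h control and 48 h of depletion. The fold at 48 h was 4.04, and 3.46 to 4.72 over the extremes of the intervals. PSMA7 stood at 205, 215, 199 and 574 FPKM (1.52). Both thus had 3 libraries close together and the last well above.

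PSMA5, the lowest tested alpha subunit, stood at 41.0, 39.8, 42.2 and 101 FPKM (1.23). PSMA2 stood at 111, 122, 128 and 255 FPKM, with a difference of 0.99 that fell just short of a call. PSMA1 and PSMA4 were called higher, with differences of 1.10 and 1.04. PSMA6 was the exception among the alpha subunits, at 95.9, 104, 92.8 and 48.6 FPKM (-0.92). Its interval after 48 h of depletion, 22.2 to 81.1 FPKM, just missed the control interval of 83.1 to 103 FPKM.

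The core beta ring had a median difference of 1.39, with 5 of 9 subunits called higher and 1 lower. PSMB4 (hg19 chr1:151372041-151374412, plus strand) stood at 225, 243, 237.5 and 953 FPKM, a 4.01-fold difference at 48 h (3.63 to 4.42 over the interval extremes). It had the highest level of any member in every library. PSMB1 and PSMB3, also structural, had differences of 1.46 and 1.39, while PSMB2 was lower, as given above.

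The catalytic subunits did not move alike. PSMB6, which cuts after acidic residues, stood at 122, 130, 137 and 455 FPKM (1.72). PSMB7, which cuts after basic residues, stood at 152, 162, 185 and 499 FPKM (1.42). PSMB5, which cuts after hydrophobic residues and is the main target of bortezomib, stood at 161, 157, 170 and 152 FPKM (-0.16). Its intervals at 48 h overlapped, 158 to 182 FPKM in the control and 130 to 179 FPKM in depleted cells, while those of PSMB6 and PSMB7 lay far apart. Part of the PSMB7 exons, 389 nt, overlaps a transcript on the other strand that was at or below 2.97 FPKM in every library.

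The immunoproteasome subunits, which replace catalytic ones after interferon, were low beside those catalytic subunits. PSMB10 was above PSMB2, a structural beta subunit, in every library. PSMB10 stood at 21.8, 19.4, 23.9 and 41.0 FPKM (0.76), or 14.3% of PSMB7, the subunit it replaces, in the first library and 12.9% and 8.22% in the control and SAF-A libraries at 48 h. PSMB9 stood at 1.98, 1.35 and 2.86 FPKM and was listed at 0 in the last library. Those values sum rows on chromosome 6 and on 7 alternative versions of it, and the chromosome 6 row alone gave 0.254, 0.183 and 0.373 FPKM. At the depth of the last library the control level would give 2.95 reads, and a count of 0 allows up to 2.91 FPKM (3 reads), so a difference in PSMB9 was not detectable at this depth.

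The base had the smallest median difference of the 4 groups at 48 h, 0.66, with 1 of 9 subunits called higher and 1 lower. Its members split. PSMC4, an ATPase, stood at 48.9, 45.7, 45.9 and 97.6 FPKM (1.07). PSMC5, an ATPase and the lowest of the group in control, stood at 35.9, 32.6, 37.6 and 72.5 FPKM (0.93), and it shares 105 nt of exon with FTSJ3 on the opposite strand. PSMC3, another ATPase, stood at 132, 120, 117 and 186 FPKM (0.66). The ATPase PSMC2 and the scaffold PSMD1 were close to a call, with differences of 0.94 and 0.97.

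Below control were PSMC1 and PSMC6, ATPases of the same ring. PSMC1 (hg19 chr14:90722894-90738966, plus strand) stood at 93.0, 92.7, 96.6 and 43.7 FPKM (-1.13), and PSMC6 at 57.1, 58.9, 54.4 and 27.8 FPKM (-0.94). The intervals were apart at 48 h for both. PSMD2 stood at 201, 200, 196 and 252 FPKM (0.36), and the ubiquitin receptor PSMD4 at 67.1, 65.1, 75.8 and 82.2 FPKM (0.11, with overlapping intervals).

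The lid had a median difference of 0.96, with 4 of 8 subunits called higher and none lower. PSMD14 was the most different, as given above, and PSMD6, PSMD8 and PSMD13 were the other lid subunits called higher, with differences of 1.16, 1.18 and 1.08. PSMD3 and PSMD11 had differences of 0.84 and 0.49. PSMD12, a scaffold of the lid, was level throughout, at 33.4, 32.8, 33.8 and 34.1 FPKM (0.01). Of the assembly chaperones, which hold base subunits until the ring closes, PSMD9 was called higher, at 20.8, 21.3, 19.6 and 40.8 FPKM (1.03). PSMD10 stood at 42.9, 42.1, 45.1 and 57.9 FPKM (0.35) and PSMD5 at 6.66, 5.48, 7.58 and 5.02 FPKM (-0.51), both with overlapping intervals at 48 h.

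PSMC3IP stood at 14.7, 14.9 and 9.37 FPKM and was listed at 0 in the last library, where the control level would give 14.2 reads. The summed upper bound there, 10.4 FPKM, lay within the control interval of 7.94 to 11.1 FPKM. That bound adds those of 8 overlapping rows, each estimated at 0 reads, so it is wider than a bound for the gene. A bound set by 3 reads lay below the control interval. The overlap of the summed intervals therefore does not show that the level matched the control. The exons of PSMC3IP share 775 nt with MLX on the opposite strand.

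Under SAF-A siRNA, the change from 24 h to 48 h gave 20 of 37 members called higher and 5 lower. Rescaling over rows of at least 300 nt left 10 called higher, and rescaling to TPM over all rows left 2 called lower. For these rescaled counts too, no share of all tested genes is given. Among all tested genes 15.1% were called higher and 17.8% lower, and among the 2335 abundant ones 27.7% and 13.2%. The median was 1.04 for the members, -0.02 for all tested genes and 0.39 for the abundant ones. By group the medians were 1.19 for alpha, 1.34 for beta, 0.63 for base and 1.06 for lid subunits. This comparison shares the SAF-A 48 h library with the preceding one, so the 2 sets of values are not independent. Over the scalings tried the sign varied for 4 members: PSMB2, PSMB5, PSMD12 and PSMD5.

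The subunits that went against the rest at 48 h were compared by how far their sequence recurs in the genome, a measure chosen after the data were seen. Reads were 50 bases long, so each 50-base stretch of a member's leading RefSeq row was looked up in GRCh37, and the share that matches at another position was taken. PSMC1 had 97.4% of its stretches elsewhere, and RefSeq lists 13 pseudogenes of it. PSMC6 had 42.9%, PSMD4 23.8%, PSMA6 23.4% and PSMD2 12.02%. In all other members the share was at most 4.88%.

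The 5 subunits at 10% or more had a median difference of -0.92 at 48 h, with 0 called higher and 1 lower. The 28 subunits under 10% had a median of 1.06, with 15 called higher and 1, PSMB9, called lower. Among all tested genes of at least 300 nt, 8.47% were called higher and 31.5% lower at 10% or more, and 15.1% and 16.8% under 10%. Among the abundant genes these shares were 7.67% and 39.6%, and 30.2% and 9.22%. At 24 h the medians of the 2 sets were -0.00 and -0.02. The 5 base subunits under 10% had a median of 0.94 at 48 h. The base subunits left out, PSMC1, PSMC6, PSMD2 and PSMD4, had the lowest differences of the base. Leaving them out could therefore only raise its median, and no conclusion is drawn from that rise. PSMB2, PSMB5, PSMD7 and PSMD12 were under 10% and were not higher.

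The same split ran through all tested genes of at least 300 nt. Those with 10% or more of their stretches elsewhere numbered 1252 (11.3%) and had a median difference of -0.57 at 48 h, against -0.06 for the other 9793. Among genes averaging 30 FPKM or more the medians were -0.76 for 391 genes and 0.49 for 1942. At 24 h the medians were -0.06 and -0.07 over all lengths of at least 300 nt, and between the control libraries 0.04 and 0.03. How reads with several matches were counted is not given in the sources used here. Its part in the difference of PSMC1, PSMC6, PSMA6, PSMD2 and PSMD4 was not tested.

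**Figure D3:**
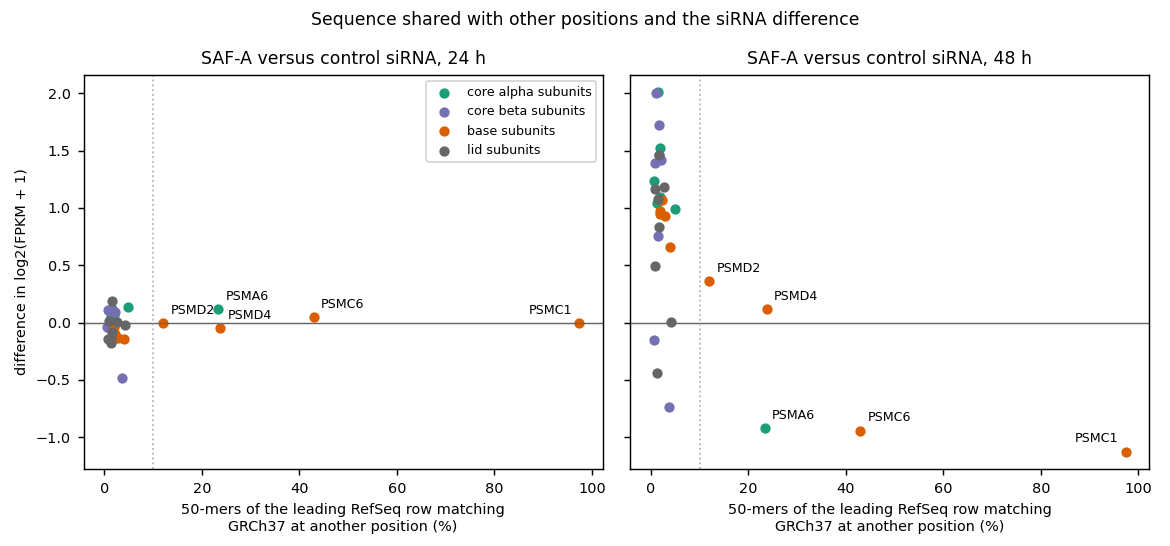
Difference in log2(FPKM + 1) between SAF-A and control siRNA at 24 h (left) and 48 h (right) against the percentage of 50-base stretches that match GRCh37 at another position, 1 point per tested subunit, PSMB9 left out. The 5 named subunits right of the dotted line at 10% lie near 0 at 24 h and between -1.13 and 0.36 at 48 h.

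Across the 33 tested subunits the difference at 48 h went with the level in the control library at 24 h, which enters neither side of that difference (Pearson's r = 0.59, Spearman's rho = 0.55). Over 7710 tested genes averaging 5 FPKM or more, and 300 nt or longer, the values were -0.08 and -0.03. Against the length of the leading row the values were r = -0.17 and rho = -0.36 over the 33 subunits and -0.09 and -0.12 over the 7710 genes. Among the 27 subunits under 10% other than PSMB9, a set chosen after the data were seen, they were -0.48 and -0.53. Against GC content they were 0.13 and 0.11 over the 33 subunits. These are descriptions across genes, which share libraries and are not independent replicates.

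Several symbols have more than 1 RefSeq row, and the authors' values split their reads between rows. Of 22 members with several rows and an average of 5 FPKM or more, 9 had a leading row with under 80% of the sum in some library. In PSMB5 the row with the highest mean held 72.2%, 73.2% and 63.9% of the summed FPKM in the first 3 libraries and 0.0036% in the last, where another row held nearly all. In PSMD10 the leading row held 69.6%, 82.3% and 76.0% and then 0.0015%. In PSMA4 the row that led in the first 3 libraries, with 61.3% to 78.9%, fell to 0.00052%.

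The rows of a gene overlap. The 3 PSMB5 rows have 75, 85 and 0 nt found in neither other row, and the 3 PSMA4 rows have none. Of the 2 PSMD10 rows, the leading one has 79 nt that the other lacks, and the other has none of its own. PSMA6 changed its split between the control libraries too, where 1 row went from 0.0082% to 45.2% of the sum. The values above are sums over rows.

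**Figure D4:**
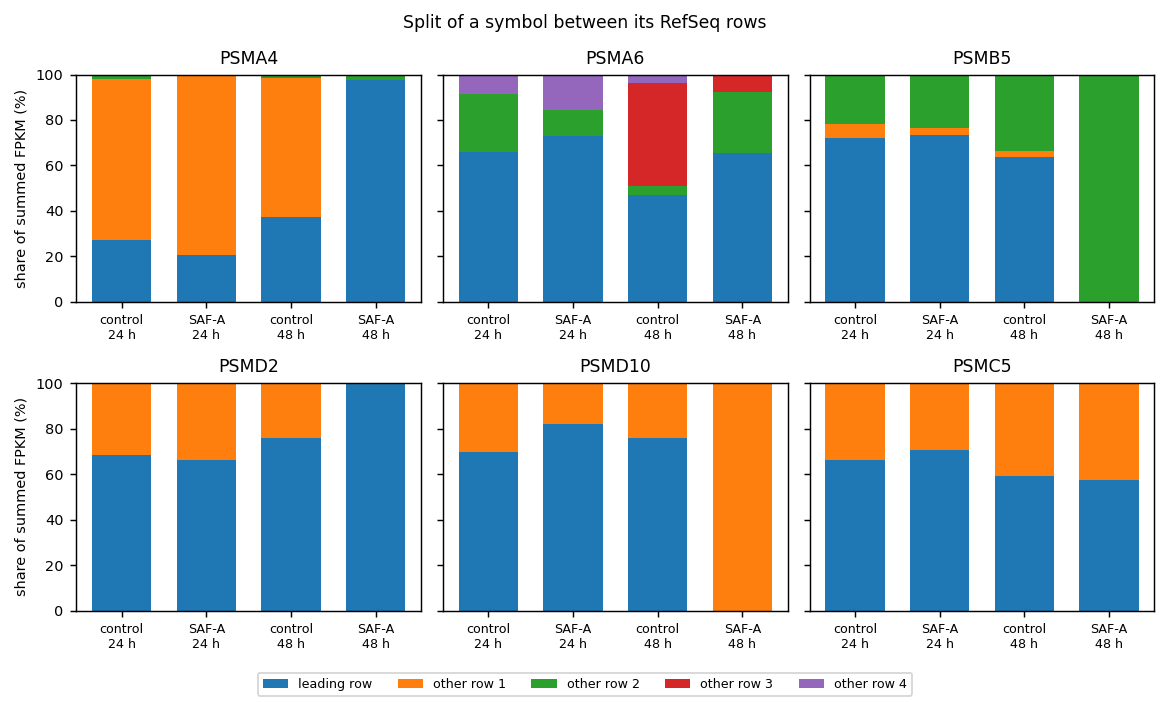
Share of the summed FPKM (%) held by each RefSeq row of 6 members in the 4 libraries; the leading row is the row with the highest mean FPKM, and the colours of other rows have no meaning across members. In PSMA4, PSMB5, PSMD2 and PSMD10 a single row holds nearly all of the sum at 48 h with SAF-A siRNA, while PSMC5 keeps a similar split in all 4 libraries.

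The promoters of the subunit genes were read for sequence elements tied to their shared control. RefSeq windows of 250 bases before to 50 after the gene start, on GRCh38.p14, matched 34 of the 39 members. On both strands TGACNNNGC, the core of the antioxidant response element bound by NFE2L1 with a small MAF protein, was found in 8 of 34 members (23.5%) and in 13.3% of all 35116 promoters of the same length. CCAAT, the box bound by NF-Y, was found in 18 (52.9%) against 34.6%. CCGGAAG, the core of ETS factor sites, was found in 12 (35.3%) against 10.3%. A match describes the letters in the window and shows no binding.

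The windows below are shown for the largest differences at 48 h in the alpha and beta rings, for PSMD3, which with PSMD9 holds the most antioxidant response cores of the members, for PSMC1 and for the level PSMD12; capitals mark the motifs.
PSMA3: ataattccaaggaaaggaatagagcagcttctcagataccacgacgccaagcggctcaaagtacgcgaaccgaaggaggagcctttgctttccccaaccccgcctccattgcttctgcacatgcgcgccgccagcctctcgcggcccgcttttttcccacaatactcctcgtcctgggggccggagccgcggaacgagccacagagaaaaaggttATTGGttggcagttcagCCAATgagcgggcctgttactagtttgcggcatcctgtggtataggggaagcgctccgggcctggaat
PSMB4: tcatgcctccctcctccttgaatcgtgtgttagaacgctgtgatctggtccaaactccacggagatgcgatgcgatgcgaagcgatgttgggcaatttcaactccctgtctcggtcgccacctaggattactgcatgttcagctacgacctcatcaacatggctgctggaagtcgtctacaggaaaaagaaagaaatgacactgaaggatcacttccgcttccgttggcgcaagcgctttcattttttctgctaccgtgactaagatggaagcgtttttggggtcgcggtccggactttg
PSMD3: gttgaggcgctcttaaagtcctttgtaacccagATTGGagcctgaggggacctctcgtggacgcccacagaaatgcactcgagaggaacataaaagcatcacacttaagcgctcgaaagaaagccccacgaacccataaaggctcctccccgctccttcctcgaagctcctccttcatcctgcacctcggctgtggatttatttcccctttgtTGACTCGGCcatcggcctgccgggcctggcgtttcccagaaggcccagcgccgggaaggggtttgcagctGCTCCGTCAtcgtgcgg
PSMC1: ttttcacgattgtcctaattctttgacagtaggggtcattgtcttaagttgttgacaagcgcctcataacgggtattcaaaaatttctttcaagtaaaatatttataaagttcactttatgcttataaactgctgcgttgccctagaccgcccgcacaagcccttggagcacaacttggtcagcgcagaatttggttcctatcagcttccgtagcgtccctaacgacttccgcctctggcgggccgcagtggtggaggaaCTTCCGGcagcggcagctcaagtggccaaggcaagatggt
PSMD12: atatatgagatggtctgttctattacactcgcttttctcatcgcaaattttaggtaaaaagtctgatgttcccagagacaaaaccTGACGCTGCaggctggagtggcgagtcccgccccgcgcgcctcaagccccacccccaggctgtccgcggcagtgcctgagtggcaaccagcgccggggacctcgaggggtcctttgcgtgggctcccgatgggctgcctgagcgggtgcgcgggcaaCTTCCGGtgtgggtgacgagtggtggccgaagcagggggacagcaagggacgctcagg
They lie at chr14:58244593-58244892, chr1:151399323-151399622, chr17:39980557-39980856 and chr14:90256303-90256602 on the plus strand and at chr17:67366528-67366827 on the minus strand. PSMA3 holds CCAAT 2 times and neither of the other motifs, and PSMB4 holds none of the 3, with folds of 4.04 and 4.01 at 48 h. PSMD3 holds the antioxidant response core 2 times and CCAAT 1 time, with a difference of 0.84. PSMC1 holds 1 ETS core, and PSMD12 holds 1 antioxidant response core and 1 ETS core.

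Among the tested members with a window, those with and without each motif had similar medians at 48 h. PSMA7, PSMB1, PSMB6, PSMB7 and PSMD4 had no window and are left out of these medians. Their differences at 48 h were 1.52, 1.46, 1.72, 1.42 and 0.11. PSMC3IP and PSMB9, both listed at 0 in the last library, are included. The median was 0.90 for the 8 tested members with an antioxidant response core and 0.84 for the 24 without. For CCAAT it was 0.93 in 17 and 0.76 in 15, and for the ETS core 0.94 in 11 and 0.84 in 21.

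The other genes of the pathway did not show the subunits' median. A list of 48 genes held assembly factors, activators, associated proteins, ubiquitin shuttles, regulators, ubiquitin genes and the VCP unfoldase complex. It also held 2 subunits outside the naming rule, SEM1 among them. Of the list 46 passed the minimum of 1 FPKM. None was called at 24 h, where the median was -0.08. The differences at 24 h ran from -0.66 in PSMG4, with overlapping intervals, to 0.69 in USP14, with intervals apart. Those genes are named after their values were seen. At 48 h 7 were called higher and 8 lower, with intervals apart for 7 and 7, and the median was -0.11. The 2 subunits in the list had a median of 1.35. The 41 genes with under 10% of 50-base stretches elsewhere had a median of 0.20, with 7 called higher and 4 lower. The 5 at 10% or more had a median of -1.07, with 0 higher and 4 lower. For the subunits of core, base and lid these medians were 1.06 and -0.92. Read against the background shares above, 14.2% and 20.1%, these counts are near those of all tested genes.

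The largest rises with intervals apart were ZFAND2A, POMP and SEM1. ZFAND2A, a zinc finger protein induced by arsenite that binds the proteasome, stood at 21.5, 20.7, 17.6 and 66.0 FPKM (1.85). POMP, the chaperone that completes the beta rings, stood at 71.8, 88.3, 76.8 and 269 FPKM (1.79). SEM1, the small lid subunit, stood at 88.2, 107, 110 and 369 FPKM (1.74). All 3 resembled the core subunits, with 1 library above the rest.

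The largest falls with intervals apart were MAFK, UBQLN4 and MAFG. PAAF1, an assembly chaperone, had a difference of -2.07 with overlapping intervals, from about 2 reads in the last library. MAFK and MAFG, the small MAF partners of NFE2L1, stood at 15.2, 10.1, 20.1 and 2.87 FPKM (-2.44) and at 15.3, 12.8, 19.2 and 6.12 FPKM (-1.51), the last MAFK value from about 11 reads. UBQLN4, a shuttle that brings ubiquitinated proteins to the particle, stood at 11.8, 9.76, 12.4 and 3.23 FPKM (-1.67), and 53.7% of its 50-base stretches recur elsewhere. NFE2L1 itself stood at 37.7, 34.3, 39.5 and 26.8 FPKM (-0.55), below control at 48 h with intervals apart. It is named after its values were seen.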

How the data were processed

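RNA from 4 RPE1 cultures was sequenced as 50-base single-end reads, 1 library per condition, per the labels' protocols. The authors deposited FPKM per RefSeq row with 95% bounds, in the format of Cufflinks, per the file headers. The submitters' processing notes name Bowtie2 2.1.0, TopHat2 2.0.10, Cufflinks 2.2.1 and hg19. The kit is not stated to mark strand, and whether counting used strand is not given in the sources used here, so a gene and one on the opposite strand cannot be separated. The deposited transcript files also hold coverage, another unit, used only for exons and depth (coverage over FPKM, per library).

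Each of the 47338 rows per file was matched to a symbol through RefSeq (97.1% matched), and FPKM and bounds were summed per symbol with pandas 2.3.3 and numpy 2.4.6. Reads were estimated from FPKM, effective length (fragments of 200 ± 80 nt) and depth, and cover counting error only. A symbol listed at 0 was given an upper bound of at least 3 reads. The pseudocount was 1 FPKM. No model was fitted.

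Members, lists and the rule for named genes were chosen with earlier results of these data known. Values in every library are given for catalytic and immunoproteasome subunits, for the highest and lowest member of each group by mean, and for the largest rise and fall of each group at each time; other members named with values were chosen after their values were seen. Pathway genes were named for the 3 largest rises and 3 largest falls at 48 h with intervals apart, and 1 pathway gene is not reported here by name. Alternatives were another pseudocount, filter, scaling, threshold, interval rule or RefSeq row. Looking only at members with under 10% of 50-base stretches elsewhere, and at genes of at least 30 FPKM, was added after the data were seen.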

Additional observations from a re-analysis of the deposited data

Results flagged for a closer look

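PSMC3, an ATPase of the base, differed in opposite directions at the 2 times, with deposited intervals apart at both. Its difference in log2(FPKM + 1) was -0.14 at 24 h and 0.66 at 48 h. The difference between the times was not tested. Control siRNA at 24 h was the highest of the first 3 libraries for this gene, at 132 FPKM.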

How the results depend on the processing

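No paired analysis was possible because each condition has 1 library. The depth of the library with SAF-A siRNA at 48 h limits every value there: 3 reads correspond to 0.54 to 4.14 FPKM for the members. No called value changed sign under the alternatives, and over them 72 counts, 152 medians and 375 values of single members stayed within 1.5 times the count or within the deposited bounds, while 8, 8 and 45 did not. The cause was not tested except where fewer members were counted. Rescaling to TPM over all rows gave 24 h medians of -0.22 for base, -0.23 for lid and -0.19 for all members, and for SAF-A siRNA with time 2 members called lower and medians of 0.86 for base and 1.29 for lid. Rescaling over rows of at least 300 nt gave 9 higher and 5 lower at 48 h and 10 higher with time under SAF-A siRNA. A 1.5-fold threshold gave 6 lower at 48 h and 1 lower with time under control siRNA. Requiring that intervals not overlap gave 1 lower at 48 h, PSMC1. With members under 10% of 50-base stretches elsewhere, the base median was 0.94 at 48 h and 1.08 with time under SAF-A siRNA, where 2 were called lower. The highest RefSeq row alone gave a base median of 0.83 with time under SAF-A siRNA. Shares of all tested genes under these changed settings are not given here. The counts in this paragraph thus have no background beside them and are not read as results about the members.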
